A study of Drosophila melanogaster with 33 samples.

Results

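The regions described here are the stretches of accessible chromatin in Drosophila melanogaster clock neurons whose sequence holds the canonical E-box, the 6-base palindrome CACGTG. Peaks of the 14 wild-type clock neuron libraries that shared at least 1 bp were merged, a region was kept if at least 2 of those libraries had a peak in it, and the dm6 sequence of each kept region was searched for the hexamer. Of 26678 kept regions, 2055 (7.7%) held at least 1 E-box. Of these, 748 lay within 500 bp of an annotated transcription start and are called promoter regions, and 1307 lay farther away and are called distal. Neither accessibility at any time nor any comparison between groups entered this choice, beyond the call in 2 libraries.

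The libraries are ATAC-seq, in which the transposase Tn5 cuts open chromatin, from cells sorted out of dissociated adult brains. GFP-positive clock neurons carried ClkGAL4 and UAS-GFP-NLS, a nuclear GFP driven by regulatory DNA of Clk. The mutant was per01/Y, which makes no PER protein, with the same driver and reporter, sorted at CT36 (subjective dusk, 4 libraries) and CT24 (subjective dawn, 4 libraries) in constant darkness (DD). Wild type was sorted at CT36 (3) and CT24 (3) in DD and at ZT12 (lights off, 4) and ZT0 (lights on, 4) in a 12:12 light-dark cycle (LD). GFP-negative non-clock cells came from per01 in DD (4), wild type in DD (3) and wild type in LD (4), with no time in the labels. Each library pools the brains of many flies and all clock neurons together, so fewer open cells and less opening per cell cannot be told apart. The labels do not say how the replicates of a group were separated, so p-values measure the spread between these libraries. Total recovered tags, the read ends behind the peak calls, ran from 4.18 M to 12.2 M in per01 clock neurons, from 7.32 M to 17 M in wild-type clock neurons and from 16.7 M to 36.2 M in non-clock cells (M, 1e+06 tags). Levels are given in CPM, the number of tags at the highest summit of a region, divided by the recovered total tags of the library in M. Peaks at 6 clock neuron markers (Clk, tim, Pdf, cry, Dh31 and gl) summed to 71.5 to 88.5 CPM in wild-type clock neurons and 32.7 to 38.2 CPM in wild-type non-clock cells, and Pdf was called in wild-type clock neurons in LD alone. Of 9 glial genes, counted with the 1000 bp upstream, 6 were called in at least 1 wild-type clock neuron library in LD, repo and moody among them, and 4 in DD, against 7 and 8 in wild-type non-clock cells. The glial list summed to 32.5 to 53.3 CPM in wild-type clock neurons and 52.5 to 66.6 CPM in wild-type non-clock cells. Of 8 photoreceptor genes 3 were called in either kind of cell, ninaE, Rh3, Rh6, ninaC and chp were in neither, and the list summed to 43.8 to 53.5 CPM in wild-type clock neurons and 46.6 to 53.4 CPM in wild-type non-clock cells. The part of other cells in the results was not tested.

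The canonical E-box is the binding site of CLK and CYC, a pair of bHLH-PAS proteins that drive the circadian clock of the fly. Around dusk the CLK/CYC pair activates per, tim, vri, Pdp1 and cwo. PER and TIM then enter the nucleus and release CLK/CYC from DNA, so that the same targets are silent around dawn, and without PER this repression is lost. The same hexamer is also bound by bHLH-zip proteins of growth and metabolism such as Myc, Max and Mnt, which are not known to cycle in this way, so most E-boxes of the genome need not be clock sites.

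The sequences below show the E-boxes of the clock genes that the comparisons turn on, each in a window of 30 bases read 5′ to 3′ on the plus strand of dm6 (from the RefSeq Release 6 assembly), with every E-box in capitals.
tim, transcription start, chr2L:3507405-3507434: gggaaatcggctCACGTGtaatcacaacgt
tim, intron, chr2L:3504915-3504944: catcacctcacaCACGTGtccgcacagcac
vri, intron, chr2L:5303340-5303369: cacattccacgaCACGTGaccgctccgccg
Pdp1, intron, E-box nearest the summit, chr3L:7833817-7833846: cacagttctaagCACGTGttgcggacacac
Pdp1, intron, the other E-box of that region, chr3L:7834120-7834149: gtgcgtctgcaaCACGTGacgtatgcgtaa
per, upstream, chrX:2685038-2685067: aaagccgccgctCACGTGgcgaactgcgtg
per, intron, E-box nearest the summit, chrX:2687693-2687722: aggcagtcggaaCACGTGcaacgcctggtt
per, intron, the other E-box of that region, chrX:2687423-2687452: cacatcgcactgCACGTGaatgcagcgtcg
The rule fixes the hexamer alone, and the bases on either side differ between the windows.

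A second set of sequences shows E-boxes that lie close together, since 144 regions held more than 1. The first 2 pairs start 7 bp apart, the spacing found in 5 regions, and the third starts 15 bp apart.
lncRNA:CR43174, exon of the noncoding RNA, chr3L:17945548-17945577: cctgcaccCACGTGgCACGTGgcagataac
Mct1, promoter region, chrX:2189386-2189415: ggtagcatCACGTGcCACGTGccggttcat
Mnt, intron, chrX:3696908-3696937: cagcCACGTGcgctttcgtCACGTGgcacc
Such close pairs were few. Of the 144 regions with 2 (135) or 3 (9) E-boxes, 16 had a pair with starts at most 30 bp apart, and the median distance between the closest starts was 145.5 bp.

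The E-box regions were larger and more often shared between libraries than accessible regions at large. Their median width was 421 bp, against 276 bp over all 26678 regions, and a wider region has more room for any 6-base word: 3.8% of regions in the narrowest width class and 16.6% of those in the widest held the E-box. All 14 wild-type clock neuron libraries called 1213 of the 2055 (59%), against 45.2% of all regions. Together the regions held 2208 of the 16785 E-boxes of the genome (13.2%). By the position of the strongest summit, 47.2% of E-box regions lay in introns and 35.6% between genes, against 46.5% and 34% of all regions. The E-box sat a median of 81.5 bp from the strongest summit, and 1190 regions had it within 100 bp. At the edge of the rule, the 80 E-box regions called in exactly 2 libraries had a median highest level of 2.74 CPM, the 120 called in 1 library and left out had 2.6 CPM, and those called in all 14 had 11.7 CPM.

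Whether E-box chromatin opens at dusk in a light-dark cycle was the first question. Between ZT12 and ZT0 the distal E-box regions were higher at ZT12 by a median of 0.08 on the log2 scale, with quartiles of -0.08 and 0.27, and 64.5% of the 1111 tested were above 0. The promoter E-box regions had a median of 0.00 over 695 tested, and distal regions without the hexamer had a median of -0.03. Of 1806 E-box regions tested, 5 passed limma's test at an adjusted p below 0.1 over all regions (0.277%), against 0.0974% of all 20534 regions tested (0.0341% higher and 0.0633% lower), and all 5 were distal and higher at ZT12. A region enters a comparison only if as many of the libraries compared called it as the smaller group holds, which left 1806 of the 2055 here. The count was 1 without ZT0 replicate 1, 2 without ZT12 replicate 1 and 2 without ZT12 replicate 3, and it was 10 without ZT0 replicate 4 and 9 without ZT12 replicate 2. Scaled by recovered total tags it was 14, all higher at ZT12, and over all regions 18 were higher and 28 lower.

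Those 5 regions were low or without a peak at dawn. Regions without any ZT0 peak entered the comparison through their ZT12 calls alone, so their lack of dawn peaks is a description. The region 826 bp from the start of lncRNA:CR45240 (chr3L:15746241-15746577), which holds 3 E-boxes, had 4.19, 3.69, 4.58 and 5.74 CPM in the 4 ZT12 libraries, and none of the 4 ZT0 libraries called a peak there. The coding-exon region of CG32264 (chr3L:3741946-3742317) likewise had 4.61, 3.77, 5.95 and 6.29 CPM at ZT12 and no peak at ZT0. The intronic region of CG6959 (chr3R:11830571-11830830) had 4.53, 5, 4.76 and 6.29 CPM at ZT12, again without a peak at ZT0. In the other two, some dawn libraries had a low peak. The intergenic region nearest to the microRNA gene mir-219 (chr3L:17310461-17310644) had 7.52, 5.5, 4.94 and 8.88 CPM at ZT12, against 3.12 CPM in 1 ZT0 library and no peak in the other 3. The intronic region of CG34353 (chr3R:27808707-27809877), with 2 E-boxes, had 7.09, 8.12, 9.88 and 12.6 CPM at ZT12, against 2.95, 3.78 and 4.18 CPM in 3 ZT0 libraries. A library without a peak was given its lowest called tag number, and the fitted differences of 1.37 to 1.67 on the log2 scale depend on that floor. With limma, these 5 had adjusted p of 0.0133 to 0.0707. Leaving out ZT0 replicate 1 or ZT12 replicate 3 ended the call at each of them but CG6959. With missing calls set to the local detection limit the difference at CG32264 was 0.78 and no longer passed. Their E-boxes lay 7.5 to 150 bp from the summit and read as follows.
lncRNA:CR45240, E-box nearest the summit, chr3L:15746452-15746481: tacggcaactgcCACGTGtcgatgcacttg
CG32264, chr3L:3742005-3742034: tcttgaccgtggCACGTGgcttgttggagc
CG6959, chr3R:11830675-11830704: ggcagaaaattgCACGTGttgccaacaaga
mir-219, chr3L:17310532-17310561: ctccgtcatggcCACGTGagcccagaaata
CG34353, E-box nearest the summit, chr3R:27808857-27808886: cacgttgtccctCACGTGacaaatgctcgg

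The same question was asked in constant darkness. Between CT36 and CT24 the distal E-box regions again had a median of 0.08, with quartiles of -0.10 and 0.29, and 62.8% of 1014 were above 0. Distal regions without the E-box had a median of 0.00 and promoter E-box regions one of 0.02. Of 1684 E-box regions tested, 15 were higher and 6 lower at CT36 by limma's test (1.25%), against 30 higher (0.156%) and 84 lower (0.437%) among all 19230 regions (0.593%). The E-box regions held 15 of the 30 regions that were higher at subjective dusk and 6 of the 84 that were lower. The count of 21 moved with single libraries. It was 69 without CT36 replicate 3 (27 higher and 42 lower, of 100 and 450 among all regions). It was 3 without CT36 replicate 1, all higher, of 27 higher and 27 lower among all regions. It was 6 without CT36 replicate 2, and 4 without CT24 replicate 1 or without CT24 replicate 2. Scaled by recovered total tags it was 17 higher and 13 lower, of 32 and 161 among all regions. Over regions called in every library compared, 43 E-box regions were higher and 37 lower, of 110 and 402 among all regions, and with missing calls at the local limit 43 were higher and 27 lower, of 85 and 334.

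The 5 largest rises in constant darkness were at regions with few or no peaks at dawn. Each was named only with a call in every CT36 library. Regions without any CT24 peak entered the comparison through their CT36 calls alone, so their lack of dawn peaks is a description. The coding-exon region of CG32264 had 5.96, 5.96 and 4.5 CPM at CT36 and no peak in any CT24 library. The region in an intron of gol, a RING-finger ubiquitin ligase gene, had 6.31, 5.69 and 5.13 CPM at CT36 and no peak at CT24. In an intron of Fur1 (chr3R:25456642-25457358), which encodes a furin-type protease of the secretory pathway, the levels were 6.88, 5.25 and 5.94 CPM at CT36, against 2.98 CPM in 1 CT24 library. The intron of CG34353 had 9.17, 8.63 and 7.2 CPM at CT36, against 3.7 and 3.98 CPM in 2 CT24 libraries. An intronic region of lncRNA:CR45552 had 4.82, 3.29 and 4.32 CPM at CT36 and no peak at CT24. Fitted differences at these 5 were 1.62, 1.68, 1.46, 1.46 and 1.22 in that order, with limma adjusted p of 0.00315 to 0.0573. Those at Fur1, CG34353 and lncRNA:CR45552 no longer passed without CT24 replicate 2 or without CT36 replicate 1. With missing calls at the local limit the difference at gol was 0.42 and did not pass.

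The remaining regions that rose at CT36 lay at vri, Pdp1, lncRNA:CR45240, lncRNA:CR43174, lncRNA:CR43434, ND-24L, sns, dpr6, CG44362 and norpA, by 0.65 to 1.13 on the log2 scale. The gene norpA encodes the phospholipase C of phototransduction, and sns and dpr6 encode cell-surface proteins of the immunoglobulin family. Of the 5 regions that were higher at ZT12 in LD, 3 were among the 15 that were higher at CT36 in DD (60% of the first list and 20% of the second). All 5 had a positive difference in DD. Over all regions tested in both, 3 were shared by 6 and 29 (50% and 10.3%), and all 6 had a positive difference in DD. At lncRNA:CR43174 (chr3L:17945345-17945965), with 3 E-boxes, the levels were 11.6, 10.5 and 10.7 CPM at CT36, against 6.64, 6.53 and 7.53 CPM at CT24, without overlap.

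Of the 6 regions that fell at CT36, the region nearest to coro, the gene of the actin-binding protein coronin, had 6.88, 6.76 and 8.91 CPM at CT36, against 12.1, 14.9 and 10.9 CPM at CT24 (log2 difference -0.71, SE 0.14, limma adjusted p = 0.0847). In LD it had a mean of 7.52 ± 0.979 CPM at ZT12 and 7.36 ± 2.7 CPM at ZT0 (SD, n = 4 each). An intron of CG13739 fell by 0.57, with 14.9, 16.3 and 18.6 CPM at CT36, against 28.1, 23.7 and 24.2 CPM at CT24. The promoter region of Tsp97E, a tetraspanin gene, fell by 0.55. Introns of Corin and Bsg had no peak in any of the 3 CT36 libraries, with fitted differences of -1.21 and -1.05. Both entered the comparison through their CT24 calls alone, so their lack of CT36 peaks is a description. Their fitted differences depend on the floor. An intron of the cadherin gene CadN fell by 0.52. Leaving out CT24 replicate 1 or 2 or CT36 replicate 1 or 2 ended the call at coro, CG13739, Tsp97E, Bsg and Corin.

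The 2 light regimes share no library, so their changes can be set side by side. Over the 650 distal E-box regions that all 14 wild-type libraries called, the change in LD and the change in DD had a Pearson correlation of 0.46 (Spearman 0.41), against 0.32 (0.29) over 5020 distal regions without the hexamer. Regions are not replicates and share their libraries within each regime. In both regimes 284 of the 650 (43.7%) were higher at dusk and 143 (22%) lower, against 26.5% and 32.6% of the distal regions without an E-box. The difference between the time effects in DD and LD was tested directly: none of the 1975 E-box regions tested passed limma's interaction test, against 0.0164% of all 24387 regions (0.0041% higher and 0.0123% lower), and 80 (4.05%) had an unadjusted p below 0.05.

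**Figure D1:**
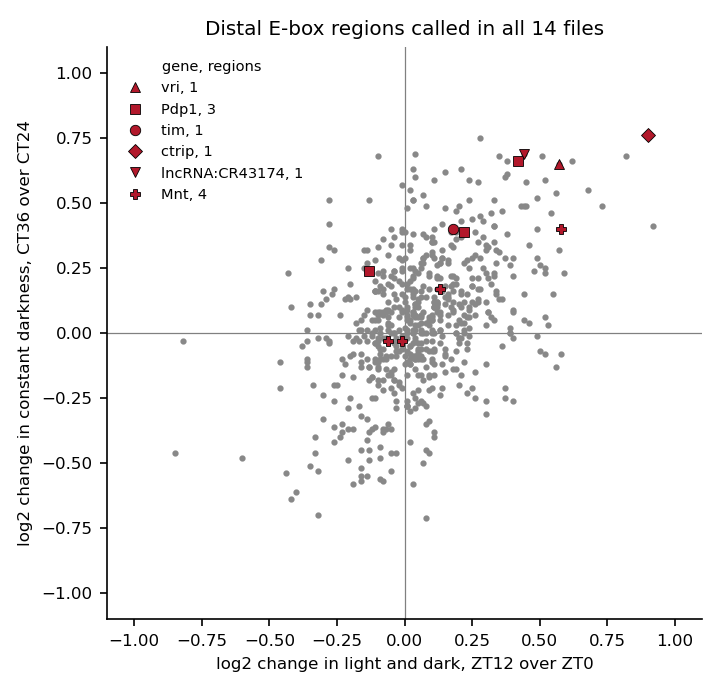
Change in accessibility of 650 distal E-box regions, called in all 14 wild-type clock neuron libraries, in light and dark (x axis, log2 of ZT12 over ZT0) and in constant darkness (y axis, log2 of CT36 over CT24). Each point is a region. Regions of vri, Pdp1, tim, ctrip, lncRNA:CR43174 and Mnt are marked, with the number of points per gene in the legend. More points lie at the upper right, above 0 on both axes (284), than at the lower left (143).

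The same time comparison was made in per01, the mutant without PER. Between CT36 and CT24 in per01 clock neurons the distal E-box regions had a median of 0.00, with quartiles of -0.11 and 0.11, and 49.7% of 948 were above 0. Promoter E-box regions had a median of -0.02. None of the 1608 E-box regions tested, and none of all 17553 regions (0%), passed limma's test, with 30 E-box regions (1.87%) at an unadjusted p below 0.05. It was also none under each of the 19 alternatives run. The interaction of genotype and time had a median of -0.07 at distal E-box regions and 0.01 at distal regions without one, and 1 of 1852 E-box regions tested (0.054%), in an intron of Corin, passed, against 0.0499% of all 22045 regions (0.0454% higher and 0.00454% lower). That call at Corin was lost without wild-type CT24 replicate 1, wild-type CT36 replicate 2 or 3, per01 CT24 replicate 1, 2 or 4, or per01 CT36 replicate 3.

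The E-box regions were also followed library by library. For each clock neuron library the median deviation of distal E-box regions from their own mean was taken relative to that of distal regions without an E-box, over regions called in all 22 clock neuron libraries. This difference was 0.027, 0.016 and 0.009 on the log2 scale in the 3 CT36 libraries of wild type, against -0.069, -0.068 and -0.046 in the 3 CT24 libraries. It was 0.008, 0.025, 0.047 and 0.076 in the 4 ZT12 libraries, against -0.044, -0.044, -0.023 and -0.049 in the 4 ZT0 libraries. All 7 dusk libraries were above 0 and all 7 dawn libraries below it. The 8 per01 libraries lay between -0.012 and 0.028, with no separation of CT36 from CT24. At promoters, the same difference lay between -0.024 and 0.034 in every group, dawn and dusk overlapping. The share of distal E-box regions called was 59.8% to 77.7% in the per01 libraries and 67.3% to 85.1% in the wild-type ones, and the per01 libraries were shallower. The part of depth in these values was not tested.

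**Figure D2:**
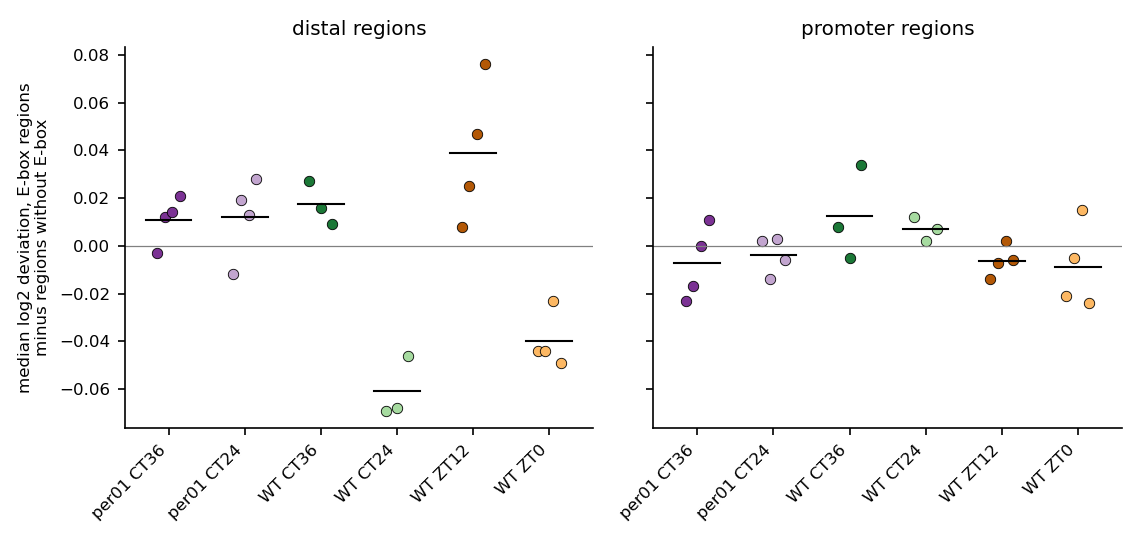
Deviation of E-box regions in each clock neuron library, as the median log2 deviation of E-box regions minus that of regions without an E-box, at distal (left) and promoter (right) regions. Each point is a library and each bar the mean of its group. In wild type the dusk libraries (CT36, ZT12) lie above 0 and the dawn libraries (CT24, ZT0) below it at distal regions, and the 8 per01 libraries lie between -0.012 and 0.028.

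Genotype was compared at each subjective time. The mutant label per01/Y is that of males, and the labels give no sex for wild type. The paper states that brains of both sexes were dissected. Sex may thus differ along with genotype in these comparisons, and its part was not tested. The regions came from wild-type clock neuron peaks, so a peak found in per01 alone could not enter. The balance of higher and lower regions follows in part from that rule. A region without any peak in 1 genotype entered a comparison through the calls of the other alone. Its lack of peaks is then a description, and its fitted difference depends on the floor. Between per01 and wild type at CT24, the time at which repression by PER is at work in wild type, 111 E-box regions were higher and 73 lower in per01 of 1699 tested (10.8%), against 7.57% of all 19528 regions, of which 665 were higher (3.41%) and 813 lower (4.16%). Of the 1022 distal E-box regions tested, 91 were higher (8.9%) and 40 lower (3.91%), with a median of 0.09. Of 9980 distal regions without the E-box, 358 were higher (3.59%) and 487 lower (4.88%), with a median of 0.00. Among the 677 promoter E-box regions 20 were higher (2.95%) and 33 lower (4.87%), with a median of 0.02. Of 7849 promoter regions without it, 196 were higher (2.5%) and 253 lower (3.22%). At CT36, when wild-type clock neurons are at their own dusk, 11 E-box regions were higher and 7 lower of 1704 (1.06%), against 1.3% of all 19071 regions (0.613% higher and 0.682% lower), and the distal median was 0.00. Scaled by recovered total tags, the median of all regions was 0.05 at CT24 and 0.09 at CT36 (0.01 and -0.01 otherwise). The E-box calls were then 109 higher and 29 lower at CT24 and 28 higher and 6 lower at CT36. Over all regions they were 681 and 405 at CT24 and 297 and 89 at CT36. The CT24 count was 52, 75 and 90 without wild-type CT24 replicate 1, 2 and 3 and 121 and 113 without per01 CT24 replicate 1 and 2. Over all regions 128 were higher and 244 lower without wild-type CT24 replicate 1. The CT36 count was 5, 11 and 10 without wild-type CT36 replicate 1, 2 and 3, and 32 and 35 without per01 CT36 replicate 1 and 4. Over all regions 31 were higher and 42 lower without wild-type CT36 replicate 1. The comparison at CT24 and the DD time comparison use the same 3 wild-type CT24 libraries, so they are not independent of each other.

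**Figure D3:**
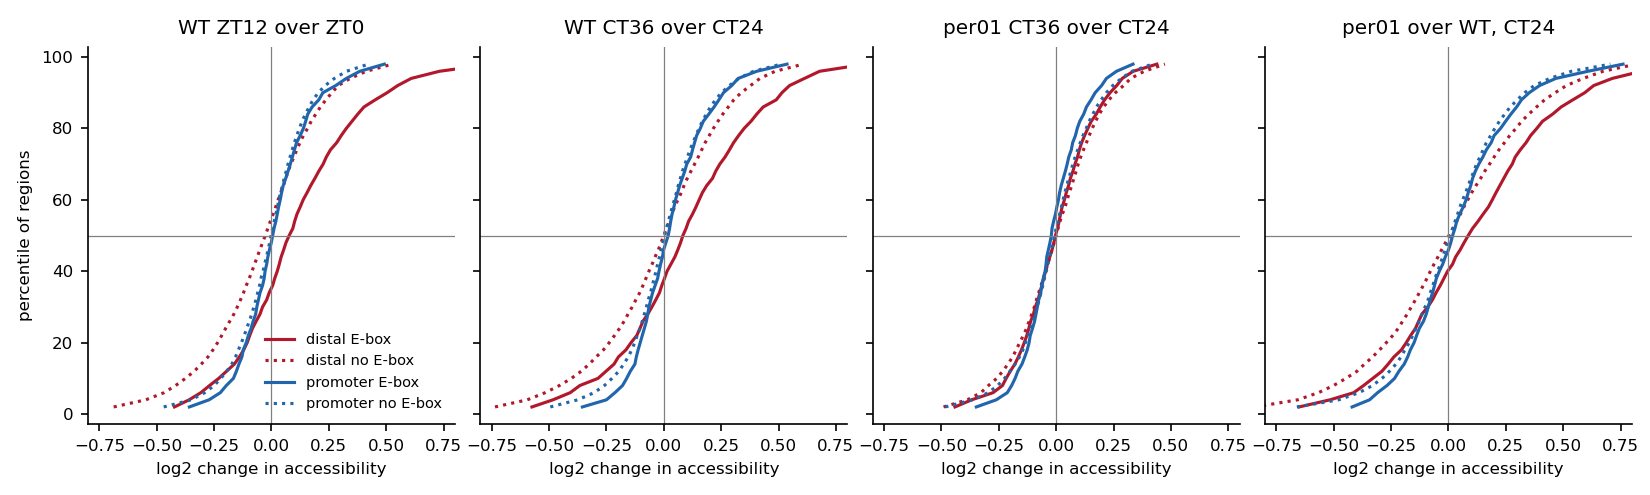
Distribution of log2 changes in accessibility for distal (red) and promoter (blue) regions with the E-box (solid) and without it (dotted), in 4 comparisons. The x axis is the log2 change and the y axis the percentile of regions at or below it. At the median the solid red curve lies to the right of the others in both wild-type time comparisons (0.08 and 0.08) and in per01 over wild type at CT24 (0.09). In the per01 time comparison it lies with them (0.00). The curves cross at low percentiles, where the solid red curve lies to the left of the blue ones. At percentile 10 it is at -0.230 in LD and -0.287 in DD, against -0.166 and -0.162 for promoter E-box regions.

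Several of the largest genotype differences were seen at both times and in non-clock cells. All comparisons of genotype rest on the wild-type DD libraries, and at some regions these stood apart from wild type in LD as well as from per01. At the intronic region of Hk (chrX:10252890-10253074), a gene for the beta subunit of the Shaker potassium channel, per01 clock neurons had 10.2, 9.78, 10.9 and 9.33 CPM at CT36 and 9.22, 9.49, 11.5 and 8.2 CPM at CT24, and none of the 6 wild-type libraries in DD had a peak. Wild-type clock neurons in LD did have it, in 7 of 8 libraries, at 5.85 to 10.3 CPM. In non-clock cells the same split was seen, with 8.44 to 11.3 CPM in the 4 per01 libraries, no peak in the 3 wild-type DD libraries and 7.16 to 10.2 CPM in the 4 wild-type LD libraries. The wild-type DD libraries were thus the ones without the peak at Hk, and the per01 allele and any other difference between those flies and the rest cannot be told apart in the genotype comparisons. The region near CG14324 had a mean of 9.92 ± 0.595 CPM in per01 (SD, n = 4) and 19.6 ± 2.67 CPM in wild type (SD, n = 3) at CT24, and 10 ± 1.09 CPM in per01 (n = 4) against 18.9 ± 1.6 CPM in wild type (n = 3) among non-clock cells. An intron of SNF4Agamma, which encodes the gamma subunit of AMP-activated kinase, fell by 0.97 at CT24, by 0.82 at CT36 and by 1.08 in non-clock cells. Between per01 and wild-type non-clock cells in DD, 37 E-box regions were higher and 42 lower of 1642 tested (4.81%), against 4.57% of all 20419 regions (1.83% higher and 2.74% lower). That count was 31 and 40 without wild-type replicate 1 and 2, 44 and 45 without per01 replicate 2 and 3, and 28 higher and 48 lower when scaled by recovered total tags. Over all regions 163 were higher and 242 lower without wild-type replicate 1, and 294 and 640 with that scaling.

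Of the E-box regions tested in both kinds of cell, 79 were higher in per01 clock neurons at CT24 and 35 were higher in per01 non-clock cells, and 13 were in both lists (16.5% of the first and 37.1% of the second). Over all regions tested in both, 133 were shared by 508 and 334 (26.2% and 39.8%). Of the lower E-box regions, 13 were in both lists of 72 and 34 (18.1% and 38.2%), against 145 of 761 and 417 (19.1% and 34.8%) over all regions. At CT36, 5 of 8 higher E-box regions and 3 of 5 lower ones were also called in non-clock cells, against 61.1% and 56.1% over all regions. These comparisons share no library. The regions higher at CT24 in per01 included one at lncRNA:CR45423, with 5.51, 4.75, 5.44 and 6.65 CPM in per01 and no peak in wild type at CT24. A coding-exon region of CG13300 had 4.39, 5.1, 4.27 and 6.65 CPM in per01 and again no peak in wild type. Both entered the CT24 comparison through their per01 calls alone. At CT36 lncRNA:CR45423 had 4.11 to 6.94 CPM in per01, against 2.49 to 2.98 CPM in wild type, and CG13300 had 3.54 to 6.94 CPM in per01, against 2.31 to 2.79 CPM in wild type. An intronic region of CG3777 rose by 1.75 at CT24, by 0.84 at CT36 and by 0.70 in non-clock cells. One of Usp15-31, the gene of a ubiquitin-specific protease, rose by 1.40, with 1 per01 library at 12 CPM and the others at 4.84 to 5.58 CPM, and no longer passed without wild-type CT24 replicate 1 or 2.

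The regions that fell most in per01 at CT24 were in introns of CASK, a scaffold protein of the synaptic membrane (-2.72), and Tudor-SN (-1.58), at the promoter of mms4 (-1.14), in an intron of Corin (-1.12) and near CG14324 (-1.01). At CASK the 3 wild-type CT24 libraries had 13.6, 15.2 and 11.7 CPM and no per01 CT24 library had a peak, but 2 per01 libraries at CT36 had one, at 12.4 and 11.3 CPM, and CASK also fell by 2.00 in non-clock cells. Leaving out any of 6 single libraries ended the call at Tudor-SN, whose region is 116 bp wide, and leaving out any of 5 ended it at mms4. At CT36, lncRNA:CR40341 (-1.42), CG32264 (-1.38) and CG9705 (-1.24) had peaks in all 3 wild-type libraries and in none of the 4 per01 libraries. They entered through the wild-type calls alone, so the lack of per01 peaks is a description. Recovered totals ran from 4.18 M to 12.2 M in the per01 CT36 libraries and from 8.72 M to 11.2 M in the wild-type ones. The part of depth was not tested. CG32264 and CG9705 were also called in all 4 ZT12 libraries, at 3.77 to 6.29 and 3.84 to 5.88 CPM. Regions higher in per01 at CT36 also included TTLL6A (1.77), lncRNA:CR45754 (1.43), CG45002 (1.28) and a region 9059 bp from mir-219 (1.27). CG45002 rose by 1.05 in non-clock cells too. Without wild-type CT36 replicate 1 the CT36 differences at CG32264, CG9705, SNF4Agamma, lncRNA:CR45754, CG45002 and the mir-219 region did not pass.

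Core clock genes held 13 E-box regions, at tim (2), vri (1), Clk (1), Pdp1 (6), cwo (1) and per (2). None lay at cyc or cry. The difference of ZT12 over ZT0 was positive at 11 of the 13, and that of CT36 over CT24 at 11 of 12 tested, with medians of 0.24 and 0.40. Among all regions tested 48.2% and 51.2% were positive. In per01 the difference between CT36 and CT24 was positive at 4 of 10 and lay between -0.19 and 0.10. Between per01 and wild type at CT24, 8 of 12 passed limma's test and all 8 were higher in per01. Over all regions tested 3.41% were higher and 4.16% lower. At CT36 none of 11 passed, with a median of 0.08. Over all regions 1.3% passed there, so 11 regions are too few to show a lack of change. In non-clock cells per01 over wild type was positive at 7 of 12 tested, with a median of 0.13, and 1 passed. The largest was at vri (1.21). The tim start had 0.41, the Pdp1 region with 2 E-boxes 0.37 and the per intron 0.91.

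At the transcription start of tim (chr2L:3507162-3507586, in the 5′ UTR), whose product pairs with PER, per01 clock neurons had 17.9, 21.7, 20 and 26.3 CPM at CT36 and 19.1, 24.8, 17.7 and 20.5 CPM at CT24. Wild type had 19.4, 21.3 and 16.1 CPM at CT36, against 9.36, 13.7 and 15.3 CPM at CT24, and 17, 15.4, 19.9 and 16.8 CPM at ZT12, against 11.3, 12.1, 10.3 and 15.3 CPM at ZT0. Every wild-type dusk library was above every wild-type dawn library, and the per01 libraries at both times were at the dusk level or above. The log2 differences were 0.48 for ZT12 over ZT0 (SE 0.13, limma adjusted p = 0.328), 0.62 for CT36 over CT24 (SE 0.17, adjusted p = 0.191) and 0.65 for per01 over wild type at CT24 (SE 0.18, adjusted p = 0.0599). By a two-sided exact permutation test of CPM, the LD difference had p = 0.0286, the smallest that 4 against 4 can give, and 0.0696 after adjustment over 39 tests at these regions. The intronic E-box region of tim (chr2L:3504746-3505497), whose E-box is 271.5 bp from the summit, had 0.18 and 0.40 for the 2 wild-type time comparisons and 0.54 for per01 over wild type at CT24 (limma adjusted p = 0.0486). Leaving out any of 4 single libraries, per01 CT24 replicate 2 or 4 or wild-type CT24 replicate 1 or 2, ended the genotype call at both tim regions.

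The E-box region of vri (chr2L:5303174-5303851) lies in an intron 1799 bp from the nearest start, with its E-box 34.5 bp from the summit. The gene encodes a bZIP repressor of Clk. The levels in per01 were 17.6, 20.5, 15.7 and 21.5 CPM at CT36 and 18.9, 20.8, 15.3 and 17.6 CPM at CT24. In wild type they were 13.8, 13.9 and 12.5 CPM at CT36, against 8.59, 9.25 and 8.24 CPM at CT24, and 15.6, 13.6, 18.4 and 18 CPM at ZT12, against 10.4, 11.2, 10.1 and 11.6 CPM at ZT0. No dusk value of wild type overlapped a dawn value of the same regime, and all 8 per01 values lay above the highest CT36 value. The region was 1.57-fold higher at CT36 than at CT24 (limma adjusted p = 0.0188) and 2-fold higher in per01 than in wild type at CT24 (adjusted p = 0.000841). In LD the log2 difference was 0.57 (limma adjusted p = 0.151). With limma's fit without a trend of variance on level, the DD time difference did not pass. In non-clock cells the region was 1.21 higher on the log2 scale in per01 than in wild type (SE 0.47, limma adjusted p = 0.223). It had a peak in 2 of 3 wild-type non-clock libraries in DD and in all 4 of per01. In wild-type clock neurons at dawn it was lower in DD than in LD, by -0.38 (limma adjusted p = 0.0851).

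Pdp1, which encodes a bZIP activator of Clk, had its 3 distal E-box regions in introns. The region with 2 E-boxes (chr3L:7833686-7834363), 1 of them 9.5 bp from the summit, had 18.3, 22.5, 19.3 and 24.6 CPM at CT36 and 21.1, 22.4, 22.7 and 25.9 CPM at CT24 in per01. Wild type had 19.8, 18.8 and 18.5 CPM at CT36, against 11.1, 12.2 and 13.9 CPM at CT24, and 17.4, 15, 19.3 and 22.3 CPM at ZT12, against 12.4, 12.7, 14.2 and 14.7 CPM at ZT0. Dusk and dawn did not overlap in either regime. In wild type it was 0.66 higher on the log2 scale at CT36 than at CT24 (SE 0.11, limma adjusted p = 0.0444) and was 0.85 higher in per01 than in wild type at CT24 (SE 0.12, adjusted p = 0.00249). The DD time call was lost when CT36 replicate 1 or 2 or CT24 replicate 1 or 2 was left out. The neighbouring intronic region (chr3L:7834838-7835642) had a mean of 20 ± 0.948 CPM at CT36 and 15.6 ± 0.89 CPM at CT24 (SD, n = 3 each) and was 0.39 higher in per01 than in wild type at CT24, a call lost without wild-type CT24 replicate 2. The third distal region, with its E-box 104.5 bp from the summit, had -0.13 in LD and 0.24 in DD and rose by 0.48 in per01 over wild type at CT24. The 3 promoter E-box regions of Pdp1 differed by -0.15 to 0.24 in LD and -0.52 to 0.06 in DD, and none passed a time or genotype test.

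The gene per gave a contrast between its 2 E-box regions. The intronic region (chrX:2687342-2687974) had a peak in all 8 per01 libraries, at 8.39, 9.59, 9.64 and 13.4 CPM at CT36 and 8.1, 10.9, 8.74 and 10.1 CPM at CT24. In wild type it had 8.83, 6.85 and 6.93 CPM at CT36, against 5.55 and 5.11 CPM in 2 of 3 CT24 libraries, and 7.01, 8.78 and 12 CPM in 3 of 4 ZT12 libraries, against 5.77 CPM in 1 of 4 ZT0 libraries. Its differences of 1.29 in LD (SE 0.53) and 1.01 in DD (SE 0.35) did not pass, and the difference of 1.25 between per01 and wild type at CT24 did (SE 0.32, limma adjusted p = 0.0536), though not without per01 CT24 replicate 2 or 4. The upstream region (chrX:2684558-2686439) was the most open of the 13 in LD, together with the Pdp1 promoter region at 7854707, with 35.1 ± 5.2 CPM at ZT12 and 32.2 ± 4.28 CPM at ZT0 (SD, n = 4 each). Its time differences were 0.10 in LD and 0.14 in DD, less than the spread between replicates. It was 0.41 higher in per01 than in wild type at CT24 (SE 0.07, limma adjusted p = 0.0107). In non-clock cells it was 0.67 higher in per01 than in wild type (limma adjusted p = 0.00358). Here too the wild-type DD libraries were the low ones. In clock neurons per01 had 27.1 ± 0.92 CPM at CT36 and 28.7 ± 1.46 CPM at CT24 (SD, n = 4 each), and wild type had 22.6 ± 3.24 CPM at CT36 and 21 ± 0.784 CPM at CT24 (SD, n = 3 each). Wild-type non-clock cells had 17.6 ± 0.729 CPM in DD (SD, n = 3) and 38.6 ± 7.7 CPM in LD (SD, n = 4). The region was lower in DD than in LD in wild-type clock neurons, by -0.66 at dusk and -0.68 at dawn on the log2 scale.

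At Clk itself the only E-box region, an intronic peak, was called in all 4 ZT12 libraries at 3.12 to 7.11 CPM, in 2 of 4 ZT0 libraries at 3.3 and 4.64 CPM and in no wild-type DD library. The intronic region of cwo, a bHLH repressor of E-box genes, had 3.5 to 4.02 CPM at ZT12 and 2.95 to 5.34 CPM in 3 of 4 ZT0 libraries, and its differences in LD and DD were 0.24 (SE 0.29) and 0.41 (SE 0.31).

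**Figure D4:**
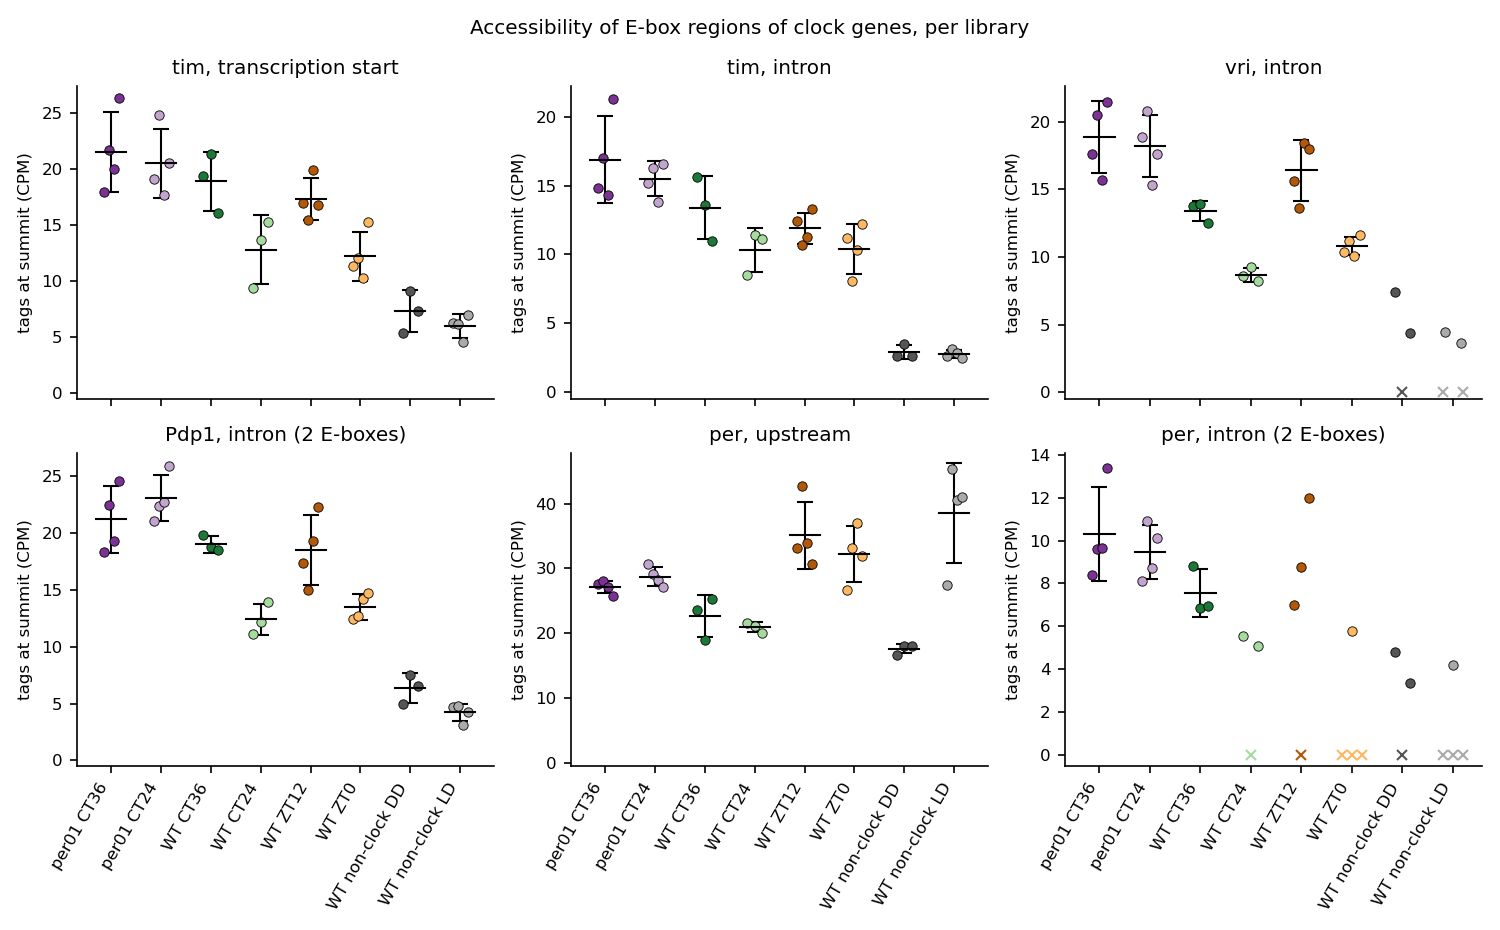
Tags at the highest summit of 6 E-box regions of clock genes, in CPM (y axis), per library and group (x axis). Points are libraries, bars the mean and whiskers the SD where every library of the group had a peak, and crosses at 0 mark libraries with no peak. At the tim transcription start, vri and Pdp1 the wild-type dusk libraries lie above the dawn libraries and the per01 libraries at or above the dusk level. At the tim intron the time differences are smaller (log2 of 0.18 in LD and 0.40 in DD), and dusk and dawn libraries overlap in LD. The per upstream region is as high in non-clock cells in LD as in clock neurons.

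Distal E-box regions were also grouped by the distance from the E-box to the point of highest accessibility. Distal regions with the E-box at most 50 bp from the strongest summit (480 regions) had medians of 0.13 in LD and 0.13 in DD, and 69.8% and 68.3% of those tested were above 0. With the E-box over 200 bp away (210 regions) the medians were 0.03 and 0.01. In per01 the medians of the 4 distance classes lay between -0.02 and 0.01. Distance and width go together, since an E-box far from the summit needs a wide region. By width, distal E-box regions of 200 to 400 bp had medians of 0.13 in LD and 0.13 in DD and those over 800 bp had 0.04 and 0.01, against -0.02 and 0.01, and -0.04 and -0.04, for distal regions without an E-box of the same widths. The parts of distance and width cannot be told apart here. At promoters the medians by distance lay between 0.00 and 0.01 in LD and between -0.01 and 0.04 in DD at every distance. Distal regions with 2 or 3 E-boxes (91) had medians of 0.16 in LD and 0.11 in DD, against 0.07 and 0.08 for those with 1 (1216). These are descriptions of overlapping groups of regions, measured in the same libraries, and the differences between the classes were not tested.

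**Figure D5:**
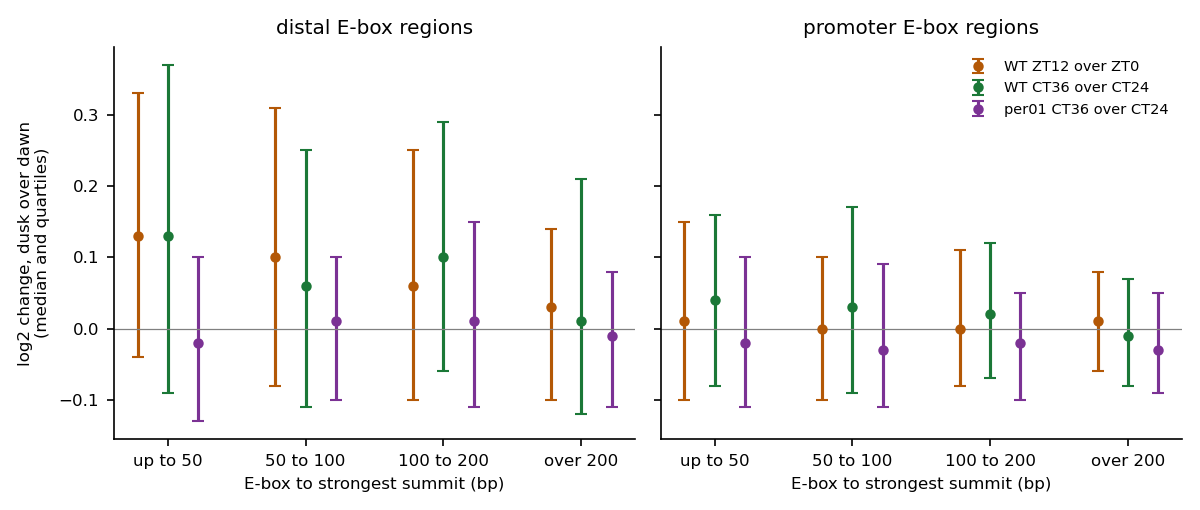
Median log2 change between dusk and dawn (points) with the lower and upper quartile (whiskers) of E-box regions by the distance of the E-box from the strongest summit, for distal (left) and promoter (right) regions. The wild-type medians at distal regions are 0.13 in both regimes at up to 50 bp and 0.03 and 0.01 over 200 bp, and the per01 medians lie between -0.02 and 0.01.

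Other features of the sequence were compared in the same way. Regions with the related hexamer CAGCTG, a site of tissue-specific bHLH proteins, and without CACGTG had medians of -0.02 in LD (4418 tested) and 0.00 in DD (4212). The VP-box, searched as TTATGTAA, TTACATAA, TTACGTAA and TTATATAA on both strands, is bound by VRI and PDP1, and 125 E-box regions (6.08%) held one, against 4.06% of all regions. The 59 distal regions with both an E-box and a VP-box had medians of -0.09 in LD (59 tested) and -0.01 in DD (53 tested). The 1248 with an E-box alone had 0.09 in LD (1052 tested) and 0.09 in DD (961 tested). Distal regions with a VP-box and no E-box had -0.15 in LD and -0.05 in DD, and those with neither had -0.02 and 0.00. Of the bases next to the palindrome, the most common pairing at distal regions was ACACGTGC (or its reverse complement), 22.2% of E-boxes, with medians of 0.07 and 0.10 in LD and DD. The form CCACGTGA had 0.13 and 0.20 over 105 E-boxes, and ACACGTGT had 0.03 and 0.07 over 127. The X chromosome held 207 distal E-box regions, with medians of 0.11 in LD and 0.00 in DD, against 0.07 and 0.10 on the autosomes. Distal regions without an E-box had 0.04 and -0.03 on the X, against -0.04 and 0.00 on the autosomes.

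Regions without a call in non-clock cells were set apart. Of the distal E-box regions, 277 (21.2%) had no peak in any of the 7 wild-type non-clock libraries. Of these, 186 were tested in LD, with a median of 0.20, and 132 in DD, with a median of 0.32. Of the 3743 distal regions without an E-box chosen in the same way, 1677 were tested in LD and 1275 in DD, with medians of -0.06 and 0.06. In per01 the median time difference was 0.00 over the 119 tested. The 740 distal E-box regions called in all 7 non-clock libraries had 0.05 and 0.03. The 277 are low regions and many lack a call at one time, where the floor sets the value. Over the 650 distal E-box regions called in all 14 wild-type libraries the medians were 0.04 and 0.06, against -0.02 and 0.00 without an E-box.

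Clock neurons and non-clock cells were compared in each light regime. A region had to be called in 2 wild-type clock neuron libraries and needed no call in non-clock cells, so the balance of higher and lower regions follows in part from the rule and is a description. In LD, 624 of 1184 distal E-box regions tested were higher and 222 lower in clock neurons, with a median of 0.40, and 111 of 728 promoter regions were higher and 189 lower, with a median of -0.08. In all, 59.9% of the 1912 E-box regions tested passed, against 54.6% of all 23188 regions (34.4% higher and 20.1% lower), and distal regions without an E-box had a median of 0.33. By position, 71.5% of distal E-box regions and 67.1% of distal regions without an E-box passed. In DD, 518 distal E-box regions were higher and 157 lower of 1114, with a median of 0.28, and 53.1% of E-box regions passed, against 50.3% of all 22664 (28.7% higher and 21.6% lower), with 60.6% of distal E-box regions and 57.3% of distal regions without one. Scaled by recovered total tags, the LD calls were 641 higher and 582 lower, against 735 and 411 otherwise. Over all regions they were 6905 and 6895, against 7984 and 4670 otherwise. The tim intron had 8.04 to 13.3 CPM in the 8 clock neuron libraries in LD, against 2.48 to 3.1 CPM in the 4 non-clock libraries, a log2 difference of 2.10. The Pdp1 promoter region at 7854707 was lower in clock neurons, by -0.24.

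Light regime was compared at each time of day. Between CT24 and ZT0, 65 E-box regions were higher and 44 lower in DD of 1771 tested (6.15%), against 5.06% of all 21557 regions (2.5% higher and 2.56% lower), and between CT36 and ZT12, 33 were higher and 101 lower of 1851 (7.24%), against 6.08% of all 20526 (1.9% higher and 4.18% lower). Scaled by recovered total tags, the calls were 69 higher and 20 lower at dawn and 6 higher and 45 lower at dusk. Over all regions they were 594 and 286 at dawn and 181 and 391 at dusk. The dawn count was 3, 9 and 13 without CT24 replicate 1, 2 and 3 and 50 without ZT0 replicate 4. Over all regions 30 were higher and 47 lower without CT24 replicate 1, against 539 and 551 with every library. The dusk count was 15, 18 and 44 without CT36 replicate 1, 2 and 3, and 29 and 80 without ZT12 replicate 1 and 3. On the X chromosome 79 of 326 E-box regions were lower in DD at dusk (24.2%) and 2 higher (0.613%), with a median of -0.38, against 18.2% lower and 2.48% higher and a median of -0.35 over all 3674 X-linked regions. On the autosomes the 1525 E-box regions had a median of 0.04. At dawn the medians were -0.28 on the X and 0.00 on the autosomes. Genotype comparisons at CT24 had a median of 0.02 at X-linked E-box regions and 0.06 at autosomal ones. The labels give no sex for wild-type flies, and the part of the flies' sex in the X-linked values and in the genotype comparisons was not tested.

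The lists of other genes gave few calls in the time and genotype comparisons. Ribosome biogenesis genes, many of them targets of Myc, had 15 E-box regions at 12 of the 15 genes listed. Of the 14 tested, none passed in any time or genotype comparison, with medians of 0.07 in LD, 0.04 in DD and 0.15 in per01 over wild type at CT24. Among all regions 0.0974% passed in LD, 0.593% in DD, 7.57% at CT24 and 1.3% at CT36. At such shares 14 regions are too few to show a lack of change. Genes of bHLH-zip proteins that bind CACGTG themselves had 13 regions, at Max, Mnt, Mondo, Myc and SREBP. In per01 at CT24 2 of 12 rose, against 3.41% of all regions tested. At the Mnt intron with its close pair of E-boxes the levels were 9, 7.24, 8.74 and 8.2 CPM in per01, against 5.22, 5.77 and 5.82 CPM in wild type at CT24 (0.51, limma adjusted p = 0.0656), and 10, 10, 8.14 and 8.61 CPM at ZT12, against 6.54, 6.74, 5.34 and 5.55 CPM at ZT0 (0.58, limma adjusted p = 0.151). Neither pair of groups overlapped. In an intron of Myc the difference at CT24 was 0.46 (limma adjusted p = 0.0461).

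Of 19 further regulators of the clock, 6 had E-box regions (Pdfr, ctrip, kay, nmo, sgg and wdb, 10 regions). In per01 at CT24, where 3.41% of all regions rose, 1 of 8 tested rose. It lies in a coding exon of ctrip (chr3R:4796452-4797769), the gene of a ubiquitin ligase that limits CLK levels. Its levels were 5.51, 6.17, 6.99 and 6.87 CPM in per01, against 3.7, 3.37 and 3.05 CPM in wild type at CT24 (0.85, limma adjusted p = 0.0268). In wild type it had 6.08, 6.31 and 4.68 CPM at CT36 and 8.12, 6.89, 7.96 and 12.4 CPM at ZT12, against 3.71, 4.32, 4.27 and 6.08 CPM at ZT0, and no non-clock library had a peak. Its time differences of 0.90 in LD and 0.76 in DD did not pass (limma adjusted p = 0.241 and 0.152). An intron of sima, the fly HIF-1 alpha gene, rose by 0.38 and the promoter region of the V-ATPase subunit gene Vha55 fell by 0.30 in per01 at CT24. The 3 E-box regions of neuropeptide genes (Dh31, Hug and sNPF) did not pass in a time or genotype comparison, and 3 are too few to show a lack of change. Between clock neurons and non-clock cells all 3 passed in LD and in DD (2 higher and 1 lower), as did 7 of 10 regions of the clock regulators (3 higher and 4 lower in either regime). Of the 13 regions of the bHLH-zip genes, 1 was higher and 5 lower in LD and 1 higher and 4 lower in DD, and of the 4 V-ATPase regions 3 were lower in LD and 4 in DD. Over all regions 54.6% passed in LD (34.4% higher and 20.1% lower) and 50.3% in DD (28.7% higher and 21.6% lower).

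The 5 regions with the most E-boxes and the widest calls, at hig, Hs3st-A, lncRNA:CR43174, Mct1 and Gga, each held 3. Of these 5, lncRNA:CR43174 passed in a time comparison. Hs3st-A and Gga fell in per01 at CT24, by 0.22 and 0.61, and Gga also fell in non-clock cells, by 0.51. At Mct1, a monocarboxylate transporter gene with the same 7 bp spacing as lncRNA:CR43174, the levels were 7.57, 7.83 and 7.11 CPM at CT36 and 7.51, 7.72 and 7.81 CPM at CT24.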

How the data were processed

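Per the methods and the submitters' processing notes, the authors trimmed reads with cutadapt 4.1, aligned them to dm6 with Bowtie2 2.4.5, removed mitochondrial reads with SAMtools 1.15.1 and PCR duplicates with Picard 2.27.4, and called peaks in each of 33 libraries separately with MACS2 2.2.7.1. The deposited peak lists give a score, a fold enrichment, −log10 p and q values and a summit offset for each peak. No read counts were used here.

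The fold enrichment is (tags + 1) over (background + 1) and the p-value is Poisson, so the tags within the extension around each summit were recovered from both values (100% of the peaks of each library gave a whole number within 0.02). They were divided by the recovered total, estimated from the genome background over 1.2e+08 bp. A wrong genome size would scale all CPM of a library alike. A region without a peak in a library took that library's lowest called tag number, so differences at such regions are bounded by that floor. A region called in only 1 of the groups compared entered through the group where it was high.

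Differences were tested with limma 3.58.1 (R 4.3.3) with a variance trend, on log2(tags + 1) scaled by the median ratio over regions. Folds of low regions are understated on that scale. P-values were adjusted by Benjamini-Hochberg over all regions tested, with a threshold of 0.1. Starts and positions came from Ensembl release 115, and 115 of 116 listed gene symbols matched. The fit was tested on simulated data. No column lacked a library, and at most 0.0137% of the peaks of any library pair were identical.

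Named regions were those at core clock genes, the 5 largest rises and falls of each time and genotype comparison with a call in every library of the higher group, the 5 with the most E-boxes, and list members that passed. The members, lists and tests were chosen with earlier results of these data known. The non-clock genotype comparison, the strata by X chromosome, width and position and a pseudocount of 5 were added after seeing the data. Alternatives changed the scaling, the handling of missing calls, filters, the model and the libraries included.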

Additional observations from a re-analysis of the deposited data

Results flagged for a closer look

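Of 52 groups of 4 libraries at the clock gene regions and the regions changed in LD, 2 had a library far from the others, and chance alone gives about 1 in 20. At the intronic E-box region of Clk, ZT12 replicate 4 had 7.11 CPM and the other ZT12 libraries 3.12 to 3.67 CPM. At the intronic Pdp1 region at chr3L:7834838-7835642, per01 CT24 replicate 4 had 19.3 CPM and the other per01 CT24 libraries 21.4 to 21.7 CPM. The intronic region of Corin differed between genotypes in its time effect, by 1.94 on the log2 scale (SE 0.33, limma adjusted p = 0.0443). In per01 it had 4.85 and 4.68 CPM in 2 of 4 CT36 libraries and no peak at CT24, and in wild type no peak at CT36 and 4.68, 4.68 and 3.76 CPM at CT24. Most of these libraries thus took the floor, and the difference of 1.94 depends on it. With missing calls at the local limit, or with a replicate block, the count of E-box regions passing this test was 0.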

How the results depend on the processing

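The median of distal E-box regions kept its sign under every alternative run in the LD comparison (0.04 to 0.11), the DD comparison (0.05 to 0.11) and per01 over wild type at CT24 (0.05 to 0.13). Relative to distal regions without the E-box it was 0.07 to 0.12, 0.06 to 0.11 and 0.06 to 0.09, and -0.01 to 0.00 in per01 over time.

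Counts of E-box regions that passed moved more, and the cause was not tested. Scaled by recovered total tags they were 14 for LD time, 34 for genotype at CT36 and 51 for DD over LD at dusk. With missing calls at the local limit they were 20 for LD time, 70 for DD time, 52 for genotype at CT36, 194 and 210 for DD over LD at dawn and dusk, and 0 for the genotype by time interaction. Over all regions that setting gave 27 higher and 34 lower for LD time, and 233 higher and 215 lower for genotype at CT36. It gave 85 and 334 for DD time, 906 and 879 for DD over LD at dawn, and 635 and 1256 at dusk. Over regions called in every library compared the E-box counts were 80 for DD time, 33 for genotype at CT36, 177 for DD over LD at dawn, 636 and 603 for clock over non-clock in LD and DD, and 0 for the interaction. Over regions called in at least 1 library they were 9 for DD time and 47 for DD over LD at dawn. With peaks at −log10 q of at least 5 the LD time count was 10. With summits joined within 150 bp the counts were 12 for DD time, 80 and 52 for genotype at CT24 and in non-clock cells, 19 and 43 for DD over LD at dawn and dusk, 3 for the genotype by time interaction and 2 for the regime by time interaction. Without the variance trend they were 9 for LD time, 13 for DD time, 117 for genotype at CT24, and 17 and 66 for DD over LD at dawn and dusk. Restricted to an E-box within 100 bp of the summit, which counts fewer regions of the same fit, they were 11 for DD time, 105 and 46 for genotype at CT24 and in non-clock cells, 51 and 62 for DD over LD at dawn and dusk, and 599 and 528 for clock over non-clock in LD and DD.

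With 1 library left out, the counts ran over 1 to 10 for LD time, 3 to 69 for DD time, 0 to 0 for per01 time, 52 to 241 and 5 to 35 for genotype at CT24 and CT36, 31 to 115 for genotype in non-clock cells, 3 to 137 and 15 to 173 for DD over LD at dawn and dusk, 1057 to 1157 and 829 to 966 for clock over non-clock in LD and DD, 0 to 6 for the genotype by time interaction and 0 to 1 for the regime by time interaction.

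Same-numbered libraries did not deviate together throughout (r of 0.0568, 0.374, -0.0843 and 0.469 in LD, -0.014, 0.0126 and -0.0304 in DD, and 0.0503, -0.0547, 0.19 and 0.292 in per01), so the numbers were not read as pairs. With a replicate block the counts were 16 for LD time, 2 for DD time, 68 for genotype at CT24, 12 for DD over LD at dawn and 0 for the genotype by time interaction.

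Of the named differences, 75 were followed through the alternatives and 18, within 1 SE of 0 and without a call, were not. None turned its direction, 138 settings ended a call and 13 gave one. Most settings (931) changed neither. The lowest called levels of each library limit what can be seen at weak regions.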
